A study of Mus musculus with 6 samples.

Results

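The genes of the mitochondrial genome were examined in livers of 3 mice after acute ethanol exposure and 3 control mice. They were chosen as every row of the deposited table that lies on chromosome MT, which gave 37 of the 28880 genes: 13 protein-coding genes, 2 rRNA genes and 22 tRNA genes. All mice were male, wild-type C57BL/6J animals aged 6 to 8 weeks, and all 6 libraries carry the same batch label. Before ethanol, mice of that group went 12 h without food. The dose, given once by mouth, was 6 g/kg of 50% (v/v) ethanol, and livers were collected 24 h later. Control mice received no ethanol. Fasting is described only for the ethanol-exposed mice, so that ethanol and fasting cannot be told apart here. Each library is the total RNA of 1 liver, and in bulk tissue fewer cells of a type and less RNA per cell cannot be told apart.

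Mitochondrial DNA is a small circular genome kept in many copies per cell. Both of its strands are transcribed into long RNAs, from which enzymes cut out the tRNAs that lie between most of the other genes and so free the mRNAs and rRNAs. The mRNAs encode core subunits of respiratory complexes I, III and IV and of the ATP synthase (complex V), and the rRNAs and tRNAs serve their translation inside the organelle. All other subunits, and the proteins that copy, transcribe and translate mitochondrial DNA, come from nuclear genes. The hepatocyte is rich in mitochondria, and in it they carry out fatty acid oxidation, part of the urea cycle and the oxidation of acetaldehyde formed from ethanol.

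The tRNA genes that the results turn on, for a fall, a large rise or a high count, are shown first, each 5′ to 3′ on its own strand as annotated for GRCm38, with the anticodon in capitals. In the liver of ethanol-exposed mice, counts were lower on the tRNA genes for isoleucine (mt-Ti, MT 3706 to 3774), glutamine (mt-Tq, MT 3772 to 3842, minus strand) and methionine (mt-Tm, MT 3845 to 3913). These genes are neighbours in the single block between mt-Nd1 and mt-Nd2.
mt-Ti: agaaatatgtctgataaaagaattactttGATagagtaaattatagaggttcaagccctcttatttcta
mt-Tq: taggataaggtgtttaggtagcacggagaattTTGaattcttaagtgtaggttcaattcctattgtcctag
mt-Tm: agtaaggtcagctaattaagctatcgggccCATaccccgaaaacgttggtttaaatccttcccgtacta

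Counts were higher on the tRNA genes for lysine (mt-Tk, MT 7700 to 7764), threonine (mt-Tt, MT 15289 to 15355), leucine (mt-Tl1, MT 2676 to 2750) and glutamate (mt-Te, MT 14071 to 14139, minus strand). The first 3 of these had the highest fold changes of all mitochondrial genes tested, and mt-Te had the most counts of any tRNA gene.
mt-Tk: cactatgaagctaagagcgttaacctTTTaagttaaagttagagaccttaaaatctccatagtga
mt-Tt: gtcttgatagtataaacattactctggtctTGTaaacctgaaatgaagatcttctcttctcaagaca
mt-Tl1: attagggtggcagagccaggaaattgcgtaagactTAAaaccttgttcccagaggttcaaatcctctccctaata
mt-Te: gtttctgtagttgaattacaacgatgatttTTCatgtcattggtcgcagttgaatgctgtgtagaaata

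In the anticodons printed in capitals, T stands for U of the RNA. The tRNA genes are 59 to 75 bp long, shorter than 1 sequenced read. Counts on them can therefore hold mature tRNAs as well as longer RNAs that run across them, and these were not separated.

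The mitochondrial genes together took 8.84%, 9.26% and 8.50% of all counts in the 3 ethanol-exposed mice and 5.45%, 6.60% and 7.40% in the 3 control mice. The groups did not overlap, with means of 8.87% ± 0.381 and 6.48% ± 0.981 (SD, n = 3 each). The share was thus 1.37 times as high after ethanol, a difference of 2.39 percentage points. Libraries held 60514417 to 74210869 counts in all and 3991305 to 6778090 mitochondrial counts. Counting error is therefore small for the mRNAs, and the 3 mice per group limit the precision. The mRNAs made up 97.8% to 99.0% of the mitochondrial counts in each library. The share of the tRNA genes in the mitochondrial counts did not overlap either, at 0.334%, 0.412% and 0.404% in control mice and 0.535%, 0.544% and 0.443% in ethanol-exposed mice. The rRNA share overlapped between the groups, at 0.889%, 1.23% and 1.13% in control mice and 1.40%, 1.69% and 0.588% in ethanol-exposed mice.

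**Figure D1:**
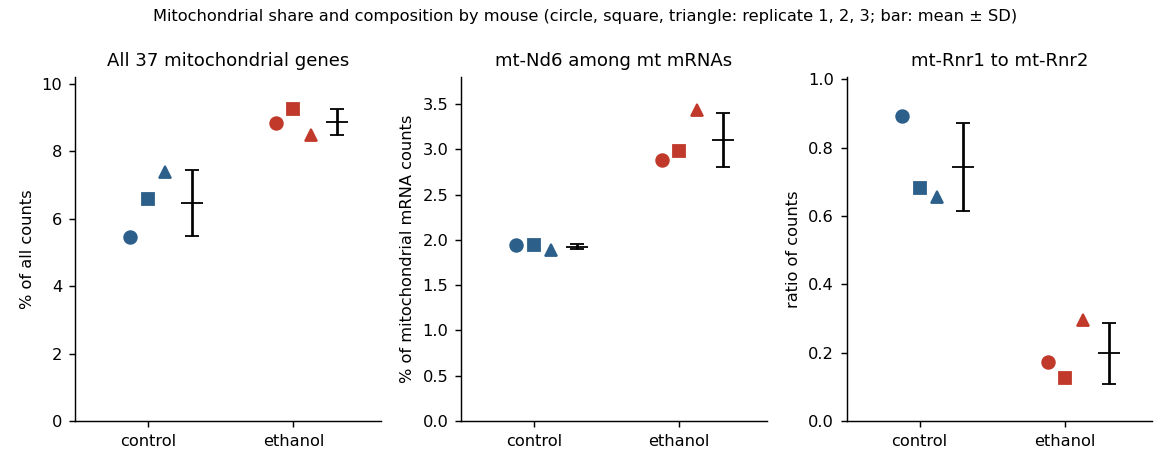
Share of all counts on the 37 mitochondrial genes (left, %), share of mt-Nd6 in the mitochondrial mRNA counts (middle, %) and ratio of mt-Rnr1 to mt-Rnr2 counts (right), for each control mouse (blue) and ethanol-exposed mouse (red), with the mean ± SD of each group in black. In all 3 panels the groups do not overlap: ethanol lies above control in the left and middle panels and below it in the right panel.

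Expression per gene was compared by edgeR's quasi-likelihood test on counts scaled by TMM factors, and its unit here is CPM, the share of the TMM-normalized library scaled to a fixed size. A gene was a DEG where its log2 fold change lay beyond 1 and its adjusted p under 0.05. Of the 35 mitochondrial genes tested, 19 were upregulated, 3 were downregulated and 13 did not pass. Over all 16717 genes tested, 10.4% were upregulated and 13.8% downregulated, 24.2% in both directions. The median log2 fold change was 1.11 over the mitochondrial genes and -0.04 over the whole table. The upregulated genes were 7 of 13 mRNAs, 1 of 2 rRNAs and 11 of the 20 tRNAs tested, and all 3 downregulated genes were tRNAs. Without control mouse 1, in which the mitochondrial share was lowest, 10 mitochondrial genes were upregulated, against 1519 of all 17279 genes tested.

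These calls depend on the scaling, because the TMM factors differed between the groups, at 0.768 to 0.836 after ethanol and 1.26 to 1.27 in control mice. With library size alone, the median over the whole table moved to -0.71 (32.2% downregulated, 5.06% upregulated), and 7 mitochondrial genes were upregulated and 3 downregulated. The 7 were mt-Nd1, mt-Nd6, mt-Tl1, mt-Tw, mt-Tk, mt-Te and mt-Tt. The log2 fold changes of mt-Nd5 (0.88), mt-Cytb (0.52), mt-Co1 (0.37), mt-Co3 (0.36) and mt-Atp6 (0.37) fell under the threshold. So did those of mt-Ts1 (0.59), mt-Ta, mt-Tn, mt-Tr, mt-Th and mt-Tp. On this scaling the mRNAs had a median log2 fold change of 0.36, against 1.03 with TMM factors. Relative to the median of all genes tested, they stood 1.07 higher under both scalings. A change of scaling moves all genes by about the same amount, so this distance could hardly differ. By limma on log2(FPKM + 1) the distance was 0.84. When each library was scaled by its own mitochondrial counts, which asks only how these genes changed relative to each other, 4 were upregulated (mt-Tk, mt-Tt, mt-Tl1, mt-Tw) and 4 downregulated (mt-Ti, mt-Tq, mt-Tm, mt-Rnr1). Of all genes tested, 3.43% were upregulated and 51.7% downregulated on that scale. By DESeq2 the mitochondrial genes again numbered 19 upregulated and 3 downregulated (7.24% and 10.5% of all genes it tested), and by limma on log2(FPKM + 1) 7 and 3 (3.92% and 16.9%).

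**Figure D2:**
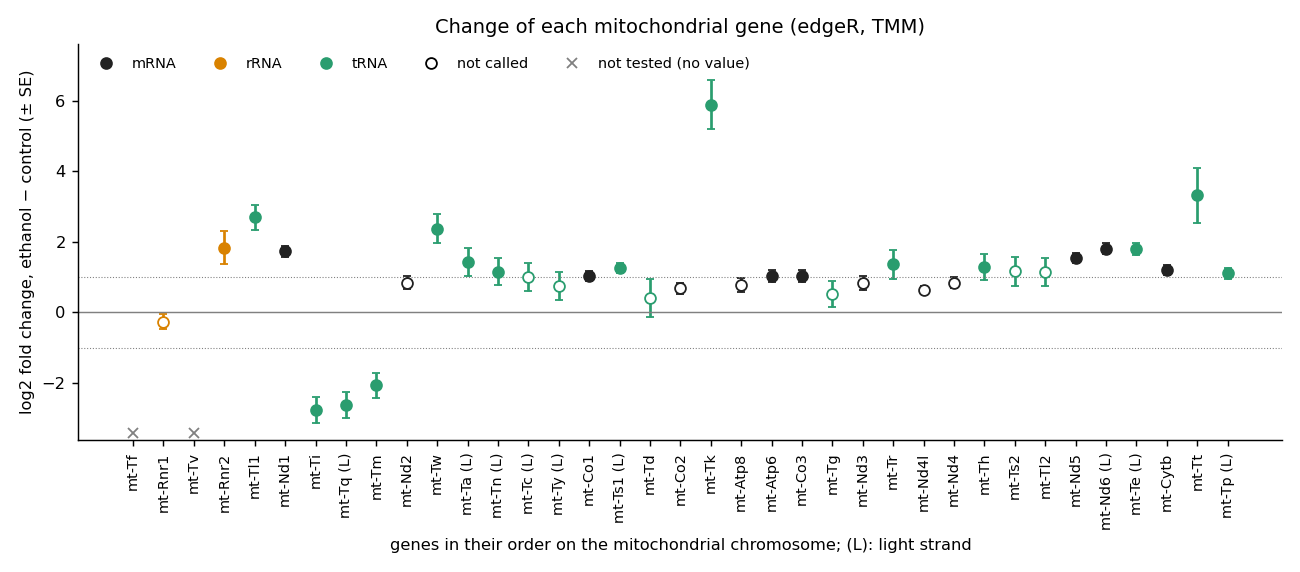
Log2 fold change (ethanol against control, edgeR with TMM factors, ± SE) of each mitochondrial gene in its order on the chromosome, for mRNAs (black), rRNAs (orange) and tRNAs (green). Filled symbols passed both thresholds, the dotted lines mark log2 fold changes of 1 and -1, and the 2 crosses at the lower edge are genes that were not tested. The 3 downregulated genes are the adjacent mt-Ti, mt-Tq and mt-Tm, and mt-Tk stands highest at 5.89.

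Complex I, the NADH dehydrogenase at the entry of the respiratory chain, takes 7 of its subunits from mitochondrial DNA. Of these, 3 were upregulated (mt-Nd1, mt-Nd5 and mt-Nd6) and 4 did not reach the fold threshold. mt-Nd6, the only mRNA on the light (minus) strand, had 3211, 3232 and 3772 CPM in ethanol-exposed mice and 825.9, 1000 and 1097 CPM in control mice. It was the mRNA with the largest change, a log2 fold change of 1.81 ± 0.15 (SE, adjusted p = 0.000243). mt-Nd1, the first mRNA downstream of the rRNAs, had 11860, 11350 and 9461 CPM against 2849, 3268 and 3758 CPM. Every ethanol-exposed mouse stood far above every control mouse, and the log2 fold change was 1.73 ± 0.16 (SE, adjusted p = 0.000342). mt-Nd5, the largest of the 13 reading frames at 1824 bp, had 10140, 10160 and 9888 CPM against 2974, 3506 and 3862 CPM. Its log2 fold change was 1.55 ± 0.13 (SE, adjusted p = 0.000286).

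The other complex I mRNAs differed less. mt-Nd2 had 8651, 8138 and 8070 CPM in ethanol-exposed mice and 3409, 4799 and 5631 CPM in control mice, with a log2 fold change of 0.84 ± 0.19 (SE, adjusted p = 0.0108). mt-Nd4 had 8362, 8119 and 8981 CPM against 3867, 4858 and 5497 CPM, with a log2 fold change of 0.84 (adjusted p = 0.00495). Both sets of values lay apart between the groups while missing the fold threshold, which mt-Nd2 passed without control mouse 3 (log2 fold change 1.01). mt-Nd3, the least abundant of the mRNAs, had 210.8, 174.6 and 250.9 CPM against 94.96, 117.7 and 143.2 CPM, a log2 fold change of 0.84. mt-Nd4l had 821.2, 824.9 and 813.7 CPM against 459.3, 527.1 and 592.6 CPM. Its log2 fold change of 0.64 ± 0.12 (SE, adjusted p = 0.00608) was the smallest of the mRNAs, and it turned to -0.03 with library size alone.

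On the scale of the mitochondrial counts, 4.17% of all genes tested were higher and 63.9% lower by the adjusted p alone. There mt-Nd6 (log2 fold change 0.68, adjusted p = 0.00879) and mt-Nd1 (0.60, adjusted p = 0.0148) were higher in ethanol-exposed mice and mt-Nd4l was lower (-0.48, adjusted p = 0.0399). All 3 stayed under the fold threshold, and mt-Nd5 did not pass by its p-value (0.42, adjusted p = 0.0569). mt-Nd6 took 2.88%, 2.98% and 3.44% of the mitochondrial mRNA counts in ethanol-exposed mice and 1.94%, 1.94% and 1.89% in control mice. The 9 genes of the light strand together took 3.23%, 3.32% and 3.78% of the mitochondrial counts against 2.20%, 2.24% and 2.19%. Neither set of shares overlapped between the groups. Since the use of strand in counting is not given in the sources used here, counts on mt-Nd6 and the light-strand tRNA genes may hold reads of heavy-strand RNA from the same positions, and these shares need not be shares of light-strand RNA. The complex I mRNAs as a whole took 38.4% ± 0.678 of the mitochondrial mRNA counts in ethanol-exposed mice and 34.9% ± 0.759 in control mice (SD, n = 3 each), also without overlap.

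Complex III, which passes electrons from ubiquinol to cytochrome c, has 1 mitochondrial subunit, cytochrome b. Its mRNA mt-Cytb was upregulated, with 13200, 12160 and 14630 CPM in ethanol-exposed mice and 5065, 5817 and 6598 CPM in control mice. The log2 fold change was 1.19 ± 0.15 (SE, adjusted p = 0.00104). As a share of the mitochondrial mRNA counts mt-Cytb overlapped between the groups, at 12.1% ± 1.09 and 11.5% ± 0.332 (SD, n = 3 each).

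Complex IV, the cytochrome c oxidase that reduces oxygen, has its 3 catalytic core subunits from mitochondrial DNA, and 2 of the 3 mRNAs were upregulated. mt-Co1, which holds the oxygen-binding heme and had the most counts of all 37 genes, had 38230, 37950 and 34830 CPM in ethanol-exposed mice and 15630, 18450 and 19910 CPM in control mice. Its log2 fold change was 1.04 ± 0.14 (SE, adjusted p = 0.00137). mt-Co3 had 4949, 4786 and 5844 CPM against 2008, 2643 and 2974 CPM, a log2 fold change of 1.03 ± 0.17 (SE, adjusted p = 0.00358). mt-Co2, which receives the electrons from cytochrome c, had 4198, 3660 and 4565 CPM against 2177, 2525 and 2997 CPM. It did not reach the fold threshold (log2 fold change 0.69, adjusted p = 0.0117), although its groups did not overlap. The complex IV mRNAs took a smaller share of the mitochondrial mRNA counts after ethanol, 42.2% ± 0.823 against 45.7% ± 0.973 (SD, n = 3 each), without overlap.

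The ATP synthase has mt-Atp6, part of its proton channel, and the small subunit mt-Atp8 from mitochondrial DNA. mt-Atp6 was upregulated, with 6306, 6229 and 7066 CPM in ethanol-exposed mice and 2540, 3196 and 3806 CPM in control mice (log2 fold change 1.04 ± 0.17, SE, adjusted p = 0.00301). mt-Atp8 had 1344, 1566 and 1473 CPM against 648.7, 817.8 and 1107 CPM, and its log2 fold change of 0.77 ± 0.20 (SE, adjusted p = 0.0189) missed the fold threshold. The annotated genes share 43 bp (MT 7927 to 7969 in GRCm38), shown here because reads across them belong to either gene, with the start codon of mt-Atp6 in capitals.
Overlap of mt-Atp8 and mt-Atp6: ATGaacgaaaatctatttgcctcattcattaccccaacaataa

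By CPM, all 13 mRNAs were higher in every ethanol-exposed mouse than in every control mouse, against 28% of all genes tested, and all 13 passed the adjusted p, against 21.5% of all genes tested that did so as higher. With shares of all counts in place of CPM, ethanol lay above control for 7 of the 13 (against 9.55% of all genes tested, with 57.3% below), namely the same mRNAs that were upregulated DEGs, and the other 6 overlapped. The calls of mt-Co1, mt-Co3 and mt-Atp6 stood close to the fold threshold. With upper quartile factors their log2 fold changes were 0.94, 0.93 and 0.94. Without control mouse 1 their log2 fold changes were 0.945, 0.88 and 0.90, and without ethanol-exposed mouse 3 those of mt-Co3 and mt-Atp6 were 0.95 and 0.99.

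**Figure D3:**
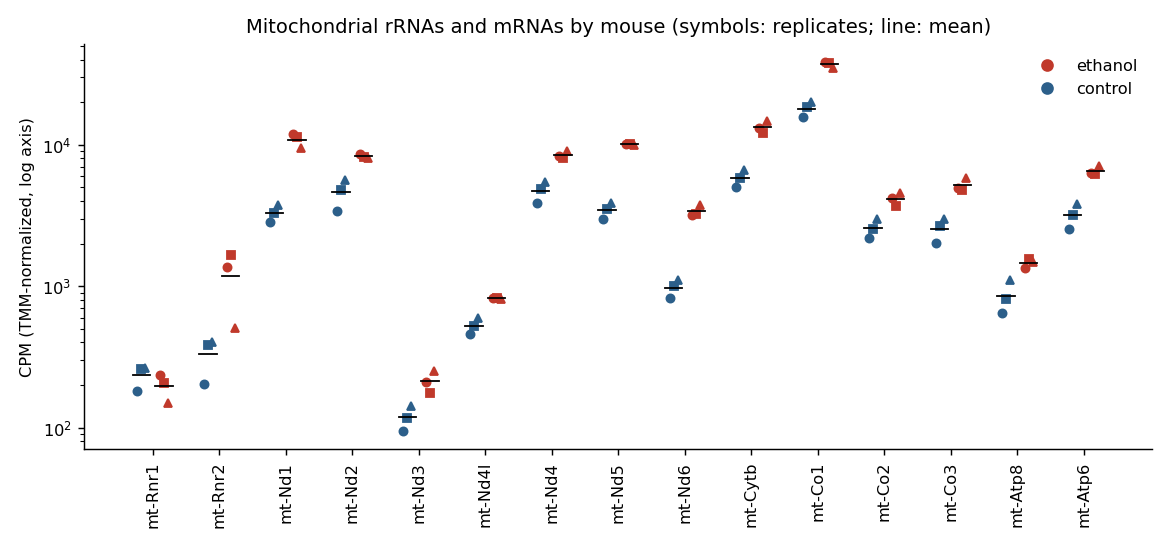
CPM (TMM-normalized, log axis) of the 2 rRNA genes and the 13 mRNA genes, ordered by complex, in each control mouse (blue) and each ethanol-exposed mouse (red), with symbols for replicates and lines for means. For all 13 mRNAs the ethanol points lie above the control points, while mt-Rnr1 overlaps and mt-Rnr2 is lowest among ethanol-exposed mice in mouse 3, at 502.8 CPM.

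The 2 rRNA genes, which lie next to each other with only mt-Tv between them, did not move together. mt-Rnr2, the 16S rRNA of the large ribosomal subunit, had 1356, 1669 and 502.8 CPM in ethanol-exposed mice and 202.3, 382.4 and 402.6 CPM in control mice. It was upregulated with the widest error of the mRNAs and rRNAs, a log2 fold change of 1.84 ± 0.46 (SE, adjusted p = 0.0163). The call was lost without ethanol-exposed mouse 1 or 2 or control mouse 1 or 2 (adjusted p from 0.0501 to 0.0607), and with library size alone (adjusted p = 0.0626). mt-Rnr1, the 12S rRNA of the small subunit, had 233.7, 207.8 and 149 CPM against 180.6, 261.2 and 263.8 CPM. On this scale the groups overlapped and no difference was detected (log2 fold change -0.26 ± 0.21, SE, adjusted p = 0.36). With library size alone mt-Rnr1 was lower after ethanol (log2 fold change -0.92, adjusted p = 0.0103), short of the fold threshold. The median over all genes tested was -0.71 on that scaling. The share of all counts on mt-Rnr1 was lower in each ethanol-exposed mouse than in any control mouse, as it was for 57.3% of all genes tested.

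Scaled by the mitochondrial counts, mt-Rnr1 was downregulated (log2 fold change -1.37, adjusted p = 0.00032) and mt-Rnr2 did not pass (0.74, adjusted p = 0.0951). The ratio of mt-Rnr1 to mt-Rnr2 counts within each library needs no scaling. It was 0.172, 0.125 and 0.296 in ethanol-exposed mice and 0.893, 0.683 and 0.655 in control mice, with no overlap and means of 0.198 ± 0.0887 and 0.744 ± 0.130 (SD, n = 3 each). Per length, in FPKM, mt-Rnr1 exceeded mt-Rnr2 in all 3 control mice (ratio 1.09 to 1.48) and was below it in all 3 ethanol-exposed mice (0.206 to 0.491). Whether libraries were selected for poly(A) tails or depleted of rRNA is not given in the sources used here, so these levels need not be those of rRNA in the tissue.

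Among the 22 tRNA genes, which serve the translation of these mRNAs, 11 were upregulated, 3 were downregulated and 6 did not pass. The other 2, mt-Tf and mt-Tv on either side of mt-Rnr1, had at most 8 counts in any library and were not tested. The mean count per tRNA gene ran from 1.83 to 9757. The 3 most abundant were upregulated. mt-Te, which lies next to mt-Nd6 on the light strand and comes before it in the direction of transcription, had 250.9, 225.3 and 242.4 CPM in ethanol-exposed mice and 51.47, 75.33 and 79.37 CPM in control mice, a log2 fold change of 1.80 ± 0.18 (SE, adjusted p = 0.000442). mt-Ts1, a light-strand serine tRNA gene opposite the end of mt-Co1, had 114.9, 105.8 and 112.6 CPM against 37.87, 46.6 and 54.35 CPM, a log2 fold change of 1.26. The third, mt-Tl1 between mt-Rnr2 and mt-Nd1, had 118.6, 132.5 and 56.57 CPM against 10.81, 18.18 and 18.63 CPM. All 3 ethanol values lay well above the control values, and the log2 fold change was 2.69 ± 0.36 (SE, adjusted p = 0.00147).

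The adjacent mt-Ti, mt-Tq and mt-Tm, whose sequences are given above, were the only downregulated mitochondrial genes. mt-Ti had 40, 67 and 46 counts in ethanol-exposed mice and 329, 508 and 635 counts in control mice. mt-Tq had 45, 54 and 82 counts against 385, 554 and 654, and mt-Tm had 92, 99 and 173 counts against 564, 767 and 858. Each gene was far lower in every ethanol-exposed mouse than in every control mouse. Their log2 fold changes were -2.76 ± 0.36 for mt-Ti (SE, adjusted p = 0.00136), -2.61 ± 0.37 for mt-Tq (adjusted p = 0.00178) and -2.05 ± 0.35 for mt-Tm (adjusted p = 0.0038). Their sum per 1000 counts of the flanking mt-Nd1 and mt-Nd2 was 0.15, 0.185 and 0.315 in ethanol-exposed mice and 2.18, 2.98 and 2.78 in control mice. All 3 were downregulated under each of the 18 alternatives tried, with log2 fold changes from -1.89 (mt-Tm) to -3.84 (mt-Ti). mt-Ti and mt-Tq overlap by 3 bp on opposite strands, and the use of strand in counting is not given in the sources used here, so that reads of the pair may not be separate.

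The largest rise in fold terms was that of mt-Tk, the lysine tRNA gene between mt-Co2 and mt-Atp8. It had 133, 251 and 51 counts in ethanol-exposed mice and only 3, 3 and 4 counts in control mice, a log2 fold change of 5.89 ± 0.69 (SE, adjusted p = 0.000881). From the summed counts, 435 and 10, each set against its group's TMM-normalized library sizes, the ratio was 63.4. Its 95% Clopper-Pearson interval of 34.1 to 133 takes the counts as read tallies and leaves out the spread between mice. Low counts in this table look rounded up (see the processing below), which weighs most on the 3, 3 and 4 of control mice. Ratio and interval are therefore approximate. mt-Tt, the threonine tRNA gene behind mt-Cytb, had 140, 200 and 51 counts against 4, 20 and 30 (log2 fold change 3.32 ± 0.77, SE, adjusted p = 0.0125). mt-Tw, the tryptophan tRNA gene behind mt-Nd2, had 655, 849 and 321 counts against 108, 194 and 193 (log2 fold change 2.37 ± 0.41, SE, adjusted p = 0.00402). These 3 genes and mt-Tl1 were the upregulated ones on the scale of the mitochondrial counts as well, with log2 fold changes of 4.78, 2.27, 1.27 and 1.59. mt-Te was higher there without reaching the fold threshold (0.69, adjusted p = 0.00733).

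The remaining upregulated tRNA genes were mt-Ta, mt-Tn, mt-Tr, mt-Th and mt-Tp, for alanine, asparagine, arginine, histidine and proline, with log2 fold changes of 1.43, 1.15, 1.36, 1.29 and 1.11. The adjusted p of mt-Ta, mt-Tn, mt-Tr and mt-Th, from 0.022 to 0.047, was higher than those of the upregulated tRNA genes above. That of mt-Tp was 0.00177. mt-Tn overlapped between the groups in CPM, with 18.91, 21.81 and 9.584 in ethanol-exposed mice and 4.336, 8.688 and 9.642 in control mice. Leaving out ethanol-exposed mouse 1 or control mouse 1 or 2 ended the calls of mt-Ta, mt-Tn, mt-Tr and mt-Th. Leaving out ethanol-exposed mouse 2 ended those of mt-Ta, mt-Tn and mt-Tr, control mouse 3 those of mt-Tn and mt-Th, and control mouse 1 that of mt-Tp (log2 fold change 0.98). Where their calls ended in these fits, mt-Ta, mt-Tn, mt-Tr and mt-Th had log2 fold changes of 0.87 to 1.54. The 6 tRNA genes tested that did not pass were mt-Tc, mt-Ty, mt-Td, mt-Tg, mt-Ts2 and mt-Tl2, with log2 fold changes from 0.42 (mt-Td) to 1.16 (mt-Ts2). Those of mt-Td and mt-Tg turned to -0.25 and -0.15 with library size alone, and of these 6 genes mt-Tc and mt-Ty passed without ethanol-exposed mouse 3.

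Ethanol-exposed mouse 3 differed from the other 2 for part of these genes. It had the fewest counts of the ethanol-exposed mice for mt-Rnr2 (27436, against 77997 and 102046), for mt-Rnr1 (8133, against 13445 and 12709), for mt-Nd1 (516323, against 682535 and 694407) and for 13 of the 22 tRNA genes, a subset noticed after the values were seen and therefore not tested. It also had the fewest counts of its group for mt-Co1, mt-Nd2, mt-Nd5 and mt-Nd4l. In the other direction, mouse 3 had the most counts of its group for mt-Tq, mt-Tm, mt-Tg, mt-Th and mt-Tl2. Among the mRNAs, mouse 3 had the most for mt-Co2, mt-Atp6, mt-Co3, mt-Nd3, mt-Nd6 and mt-Cytb. It also had the most counts in its group of S100a9 (339, against 48 and 103), 1 of the 8 neutrophil genes. The neutrophil list was not among the planned marker lists, and the part of these cells was not tested. Its total of 71123046 counts was close to the 74001784 and 73193718 of the others.

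**Figure D4:**
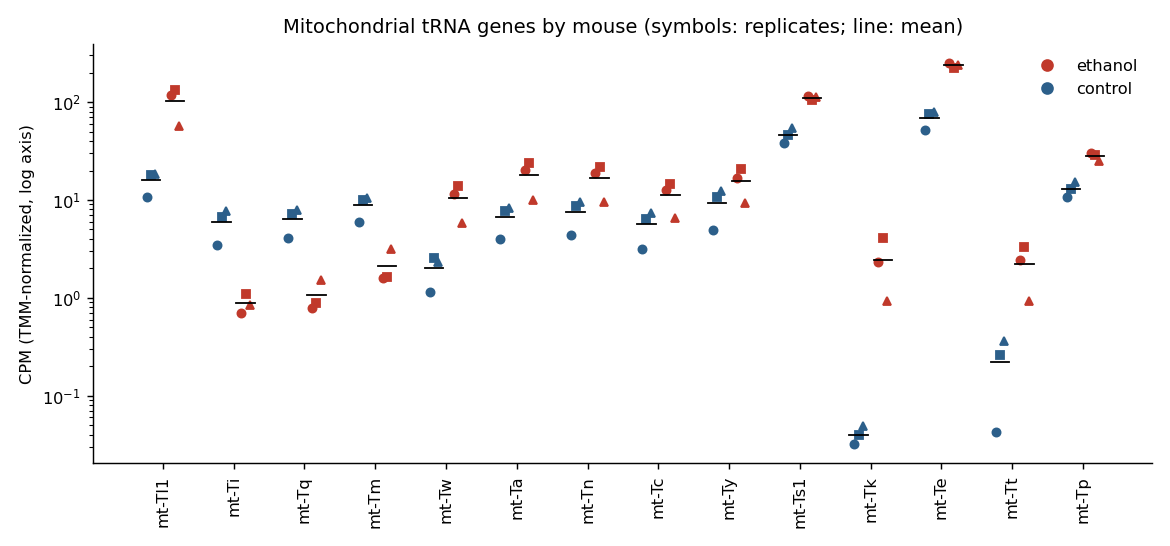
CPM (TMM-normalized, log axis) of 14 mitochondrial tRNA genes in the order of the chromosome, in each control mouse (blue) and each ethanol-exposed mouse (red), with symbols for replicates and lines for means. mt-Ti, mt-Tq and mt-Tm lie lower in ethanol-exposed mice, mt-Tk is at 0.0486 CPM or less in control mice, and the red triangle of ethanol-exposed mouse 3 is below the other red symbols for most of the upregulated genes.

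Levels of the mRNAs relative to each other were compared per length, by FPKM, which the authors scaled to library size and not by TMM factors. Near-identical stretches of mitochondrial sequence in the nuclear genome had to be taken into account. Of the annotated nuclear genes, 11 matched a mitochondrial gene over at least 150 bp with at least 95% identity, and 7 of these lie in 1 block on chromosome 1 and are 99.7% to 100% identical to mt-Atp6, mt-Co3, mt-Co2, mt-Nd4, mt-Co1, mt-Nd4l and mt-Nd3. Their rows held 1.27% to 1.93% of all counts per library. Atp6-ps, the copy of mt-Atp6, had 103% to 105% of the counts of mt-Atp6 itself, and the copies of mt-Co2, mt-Co3, mt-Nd3 and mt-Nd4l had 93.7% to 99.9% of theirs. Reads of such pairs cannot be told apart. With the copies' counts added to the gene they match, the mitochondrial genes took 10.7% ± 0.339 of all counts in ethanol-exposed mice and 8.04% ± 1.26 in control mice (SD, n = 3 each). Again 19 were upregulated and 3 downregulated (1736 and 2296 of all 16706 genes tested), and no mitochondrial gene changed its call.

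With the copies included, mt-Co1 was the most abundant mRNA in control mice (14810 ± 1813 FPKM, SD, n = 3), followed by mt-Atp6 (11250 ± 2231), mt-Co2 (8801 ± 1400), mt-Co3 (7623 ± 1447), mt-Cytb (6006 ± 773.8) and mt-Nd4 (5707 ± 999). Then came mt-Nd2 (5241 ± 1262), mt-Atp8 (4957 ± 1327), mt-Nd4l (4155 ± 513.4), mt-Nd1 (4055 ± 549.9), mt-Nd5 (2229 ± 283), mt-Nd6 (2214 ± 306.4) and mt-Nd3 (789 ± 155.5). In this order the steps from mt-Co1 to mt-Atp6, mt-Atp6 to mt-Co2, mt-Co3 to mt-Cytb, mt-Nd1 to mt-Nd5 and mt-Nd6 to mt-Nd3 were larger than the SDs of both genes, and the other neighbours did not differ beyond their spread. Whether a read was counted on both rows of a pair is not given in the sources used here, and the order depends on it. From the mitochondrial rows alone, mt-Co1 (13730 ± 1623 FPKM) was again highest in control mice and mt-Nd3 (401.8 ± 80.64) lowest, but mt-Cytb (6006 ± 773.8) came second, mt-Atp6 had 5506 ± 1081, and mt-Co2 (4423 ± 697.3) and mt-Co3 (3822 ± 728.5) lay below mt-Nd2 and mt-Atp8. mt-Nd1 and mt-Nd6, which had no copy among these genes, had 8444 ± 1182 and 4852 ± 362.8 FPKM in ethanol-exposed mice. mt-Co2 and mt-Nd4l had nearly the same FPKM in both groups, with the copies (8869 against 8801 and 4035 against 4155 in ethanol-exposed and control mice) and without them (4470 against 4423 and 2045 against 2090).

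The nuclear genes that work with the mitochondrial genome were described from lists. Of 73 nuclear subunits of complexes I, III, IV and V, 4 were upregulated (Ndufa5, Uqcrq, Cox4i1 and Cox6c) and 0 were downregulated, against 10.4% and 13.8% of all genes tested. The share called was thus below that of the whole table. By the adjusted p alone, 32 of 36 complex I, 9 of 9 complex III, 11 of 11 complex IV and 16 of 17 complex V subunits were higher, against 21.5% of all genes tested. Their median log2 fold change was 0.68, against 1.03 for the mitochondrial mRNAs and -0.04 for all genes tested. With library size alone it was 0.01, with no subunit upregulated, against 5.06% of all genes tested. Ndufa5, an accessory subunit of complex I, had 18.4 CPM in ethanol-exposed and 9.15 CPM in control mice (log2 fold change 1.01, adjusted p = 0.00118). Uqcrq of complex III (150.1 against 73.8 CPM, log2 fold change 1.02) and Cox4i1 of complex IV (313.2 against 151.9 CPM, log2 fold change 1.04) stood at a like distance from control, and like Ndufa5 close to the fold threshold. Leaving out 1 mouse gave between 1 (without ethanol-exposed mouse 1) and 11 (without ethanol-exposed mouse 2) upregulated subunits, with 2 without control mouse 2. In these fits 1535 of 17526, 1693 of 17528 and 1490 of 17385 genes tested were upregulated, in that order.

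**Figure D5:**
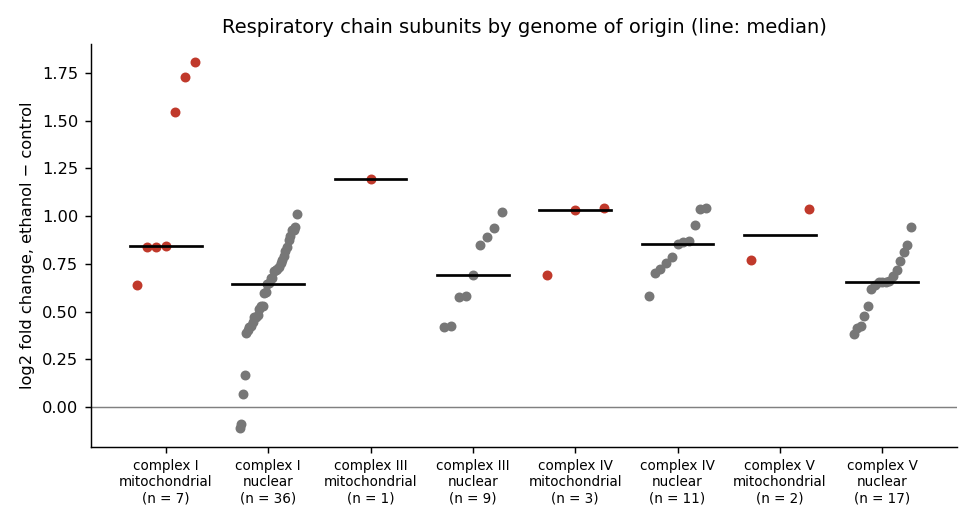
Log2 fold change (ethanol against control, edgeR with TMM factors) of the mitochondrial (red) and nuclear (grey) subunits of complexes I, III, IV and V, with 1 point per gene and a line at the median. The mitochondrial medians are higher than the nuclear ones in each complex, and mt-Nd1, mt-Nd5 and mt-Nd6 lie above all nuclear subunits.

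Of 111 nuclear genes for the replication, transcription, processing, decay and translation of mitochondrial nucleic acids and for mitochondrial biogenesis, 4 were upregulated and 21 downregulated (against 10.4% and 13.8% of all genes tested). Their median log2 fold change was -0.37, and -1.03 with library size alone, where 59 were downregulated (against 32.2% of all genes tested). In transcription, 2 of 10 genes were downregulated: Mterf2, a member of the mitochondrial termination factor family (0.392 against 2.68 CPM, log2 fold change -2.77 ± 0.41, SE, adjusted p = 0.00204), and Polrmt, the mitochondrial RNA polymerase. Polrmt had 6.83, 9.58 and 13.9 CPM in ethanol-exposed mice and 18.9, 21.3 and 20.9 CPM in control mice (log2 fold change -1.01, adjusted p = 0.0149). The DNA-packaging factor Tfam did not pass, at a log2 fold change of -0.13 (adjusted p = 0.605).

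In replication and maintenance, 7 of 19 genes were downregulated (against 13.8% of all genes tested), with the smallest adjusted p for Lig3, the DNA ligase of mitochondria (5.54 against 19.8 CPM, log2 fold change -1.84 ± 0.15, SE, adjusted p = 0.000213). The pyrimidine nucleotide carrier Slc25a33 was the 1 upregulated gene, with 143.3, 109.6 and 28 CPM in ethanol-exposed mice and 12.2, 13.5 and 15.7 CPM in control mice (log2 fold change 2.76 ± 0.54, SE, adjusted p = 0.00623). Among 31 genes of RNA processing and modification, 2 were upregulated (Alkbh1 and Ddx28) and 5 downregulated, against 10.4% and 13.8% of all genes tested, so that neither share stood out from the whole table. Alkbh1, a dioxygenase that modifies mitochondrial tRNAs, had a log2 fold change of 1.33 ± 0.19 (SE, adjusted p = 0.00169). Ptcd2, a pentatricopeptide repeat protein, had one of -1.16 ± 0.12 (SE, adjusted p = 0.000549). Of the 7 genes of polyadenylation, stability and decay, 0 were DEGs by edgeR. By adjusted p alone 2 were higher and 1 lower, against 21.5% of all genes tested higher and 21.5% lower.

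Of 16 translation factors, 5 were downregulated (against 13.8% of all genes tested), with the smallest adjusted p for the initiation factor Mtif2 (12.9 against 26.3 CPM, log2 fold change -1.03 ± 0.11, SE, adjusted p = 0.000566). Of 20 genes for the charging of mitochondrial tRNAs, 2 were downregulated, Qrsl1 and Sars2, a share no higher than the 13.8% of all genes tested. Qrsl1, a subunit of the mitochondrial glutamyl-tRNA amidotransferase, had 1.55, 1.6 and 2.84 CPM in ethanol-exposed mice against 5.21, 5.38 and 6.02 CPM in control mice (log2 fold change -1.47 ± 0.28, SE, adjusted p = 0.00579). The isoleucyl-, methionyl- and glutamyl-tRNA synthetase genes Iars2, Mars2 and Ears2 were looked up for the downregulated mt-Ti, mt-Tm and mt-Tq and did not pass (log2 fold changes -0.01, -0.95 and -0.33, adjusted p = 0.97, 0.0947 and 0.164). Ears2 is not the only gene of the list that serves the charging of mt-Tq, as the downregulated Qrsl1 does so too. Of 8 regulators of biogenesis, 1 was upregulated (against 10.4% of all genes tested), the coactivator Ppargc1b, whose groups overlapped (9.99, 8.55 and 2.03 CPM in ethanol-exposed mice against 2.06, 1.37 and 1.18 CPM in control mice, log2 fold change 2.16, adjusted p = 0.0197). Polrmt, Tfam, Iars2, Mars2, Ears2, the RNAs without a poly(A) tail named below, and those upregulated or downregulated genes named beside the one of smallest adjusted p in their list, were chosen after their values were seen.

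The labelled tissue carried its markers, with 12 of 12 hepatocyte genes tested and Alb at 93820 CPM in ethanol-exposed and 53100 CPM in control mice. Markers of several cell types moved with the groups on the same scale as the mitochondrial genes, and their counts stand against 10.4% of all genes tested that were upregulated and 13.8% that were downregulated. The summed level of the 12 hepatocyte markers was 139200 to 144200 CPM in ethanol-exposed mice and 75240 to 87760 CPM in control mice. Alb made up most of this sum. The 12 genes had a median log2 fold change of 0.60, and of -0.07 with library size alone. Of them, 3 were upregulated (Apoa1, Rbp4 and Tat) and 1 was downregulated, G6pc1, with 118.7 against 879.1 CPM. The 7 erythroid genes summed to 578.8 to 863.6 CPM against 179.8 to 219.8 CPM with 4 of 5 tested upregulated, while Slc4a1 was at 0 in ethanol-exposed mice. The 8 neutrophil genes summed to 2.26 to 12.4 CPM against 0.279 to 0.33 CPM, with 4 of 4 tested upregulated. Camp, Ltf, Ly6g and Mmp8 were at 0 in control mice. The sums of the Kupffer cell, endothelial, cholangiocyte and B cell markers overlapped between the groups. Of 10 Kupffer cell markers tested, 0 were upregulated and 0 downregulated, while single members of the other lists were called. Of 9 endothelial markers tested, 4 were downregulated (Dnase1l3, Fcgr2b, Kdr and Oit3) and Lyve1 was upregulated, with 42.3 against 3.52 CPM. Of 6 cholangiocyte markers tested, 2 were upregulated, Sox9 (32.1 against 4.67 CPM) and Tstd1 (11.1 against 4.01 CPM). Of 6 B cell markers tested, Ms4a1 was downregulated. The 7 T cell markers summed to 0.229 to 1.01 CPM against 1.12 to 1.58 CPM, and of the 4 tested 0 were called. The 10 stellate cell markers summed to 235.7 to 272.7 CPM against 204 to 227.1 CPM. Of these 10, all tested, 0 were upregulated and 2 were downregulated, against the direction of the sum. The part of these cells in the mitochondrial results was not tested. The nuclear RNAs without a poly(A) tail, which follow how RNA was selected, overlapped in their sum (80.1 to 195.2 CPM against 180.6 to 193.1 CPM), which is mostly that of the histone genes H1f2 and H2bc4. The 5 of them tested had a median log2 fold change of 1.25, against -0.04 over all genes tested, with adjusted p from 0.0968 to 0.826. Rn7s1, Rn7s2 and Rn7sk, at 7 to 80 counts per library, had log2 fold changes of 1.42, 1.25 and 1.33 and were higher by CPM in each ethanol-exposed mouse than in any control mouse (against 28% of all genes tested), while H1f2 and H2bc4 overlapped (-0.16 and -0.34). The part of RNA selection in the mitochondrial results was not tested.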

How the data were processed

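Liver RNA of 3 ethanol-exposed and 3 control mice was sequenced from both fragment ends. For each Ensembl gene the authors deposited a count, as a whole number that was not normalized, and an FPKM value, scaled to gene length and library size. For 101 of 101 mitochondrial values of 1 to 999, the count exceeded FPKM × length × a library constant by 0.008 to 1, as it would after rounding up. Aligner, counter, library selection and use of the strand are not given in the sources used here. The submitters' processing notes name the GRCm38 and mm10 builds. Start and end equalled GENCODE vM21 (GRCm38) for 37 of 37 mitochondrial genes but for 502 of 27012 nuclear genes compared, so only mitochondrial coordinates and sequences are given, from GRCm38. Anticodons were placed in the tRNA genes by the 5 bp stem around them, with at least 4 pairs, and nuclear copies were found with BLAST 2.17.0 against these GENCODE transcripts. The table held 1 further column of counts that matches no library analysed here, and it was not used. The values of 1 marker gene are not reported here.

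Counts were analysed in R 4.3.3 with edgeR 4.0.16: filterByExpr, TMM factors and the quasi-likelihood test (two-sided). P-values were adjusted by Benjamini-Hochberg over all 16717 genes tested. The SE was taken from the test's F value. Sums over members are given as descriptions, without a test. Alternatives were DESeq2 1.42.0, limma 3.58.1 on log2(FPKM + 1) and log2(FPKM + 0.1), other scalings, no filter, the adjusted p alone, the replicate number as a block and each library left out. Upper quartile factors, addition of the nuclear copies and the alternatives for class shares were chosen after seeing the data. The count of protein-coding genes in 1 denominator was corrected after its first value was seen. The tests were checked on simulated data. Between libraries of 1 group the chi-square divided by its degrees of freedom was 53.9 to 545, beyond counting noise, so each counted once. The members and lists were chosen with earlier results of these data known. All mRNAs and rRNAs were named, of the tRNA genes the 3 with most counts and those called, and of each nuclear list the upregulated and the downregulated gene of smallest adjusted p. Depth of 60514417 to 74210869 counts per library leaves counting error small except for tRNA genes with few counts.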

Additional observations from a re-analysis of the deposited data

How the results depend on the processing

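Against 19 mitochondrial genes upregulated, library size alone gave 7, scaling by mitochondrial counts 4, and limma on log2(FPKM + 1) and log2(FPKM + 0.1) 7 each, where the median over the tested genes was -0.71, -1.19, -0.46 and -0.59. Of all genes tested in these fits, 5.06%, 3.43% and 3.92% were upregulated in the first 3, and 498 of 10072 in the last. Upper quartile factors, chosen after seeing the data, gave 15, where 1506 of all 16717 genes tested were upregulated. Leaving out 1 mouse gave 10 to 19. The 10 came without control mouse 1 (1519 of 17279 genes) and the 19 without ethanol-exposed mouse 3 (1920 of 17622). The 3 downregulated tRNA genes were called under every alternative, joined by mt-Rnr1 when scaled by mitochondrial counts. The replicate numbers did not pair the samples (correlations of same-numbered deviations -0.042 to -0.008). With the number as a block 16 were upregulated and 3 downregulated, against 1518 and 2000 of all 16717 genes tested. The difference in the share of counts was 3.38 points by summed FPKM and 1.87 to 2.85 points without 1 mouse. The rRNA share, whose groups overlapped, differed by 0.143 points, by -0.0214 by FPKM, and by -0.0901 to 0.462 without 1 mouse.

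Scaled by mitochondrial counts, 14 log2 fold changes turned: mt-Nd2 -0.26, mt-Tc -0.084, mt-Ty -0.33, mt-Co1 -0.085, mt-Td -0.69, mt-Co2 -0.43, mt-Atp8 -0.33, mt-Atp6 -0.074, mt-Co3 -0.082, mt-Tg -0.57, mt-Nd3 -0.27, mt-Nd4 -0.28, mt-Tp -0.011 and mt-Nd4l -0.48. That scaling takes out any rise these genes share, so genes that rose less than the mitochondrial total turned by construction. With library size alone and limma at either pseudocount mt-Td (-0.25, -0.19 and -0.25), mt-Tg (-0.15, -0.105 and -0.11) and mt-Nd4l (-0.028, -0.025 and -0.025) turned. Nuclear subunits upregulated numbered 0 with library size alone and with upper quartile factors, 2 with DESeq2 and 1 to 11 without 1 mouse, against 4. Of all genes tested, 5.06% were upregulated with library size alone, 7.24% with DESeq2 and 1506 of 16717 with upper quartile factors. The 1 came without ethanol-exposed mouse 1 (1535 of 17526 genes) and the 11 without ethanol-exposed mouse 2 (1693 of 17528). Nuclear genes of mitochondrial DNA expression numbered 1 upregulated and 59 downregulated with library size alone, against 5.06% and 32.2% of all genes tested. Causes beyond the scaling itself were not tested. Depth limits tRNA genes with few counts, such as mt-Td with 12 to 16 counts per library.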
